A study of Homo sapiens with 6 samples.

Results

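Divergent transcripts (-DT genes) are long noncoding RNAs (lncRNAs) named after the protein-coding gene beside whose promoter they start, from the opposite strand. The members were every lncRNA gene of the GENCODE annotation whose symbol ends in -DT and whose counted transcript left a length to measure, which gave 513 of 37110 genes. A total of 502 of them were paired with the counted coding gene named before the suffix, and 11 had no counted partner. Levels were measured in K562, a human cell line from a chronic myelogenous leukemia, grown without any treatment in RPMI-1640 medium with serum and antibiotics. There were 4 total RNA-seq libraries (rRNA-depleted, steady-state RNA) and 2 PRO-seq libraries, which map engaged RNA polymerase through the nascent RNA. The cells for every library were grown in a shared flask, so that all p-values measure the spread between libraries of a single culture. All 10 erythroid genes by which K562 is commonly recognised had RNA, among them the gamma-globin gene HBG2 (6292 TPM) and the transcription factor gene GATA1 (156 TPM). In bulk RNA, transcripts in fewer cells and less RNA per cell cannot be told apart.

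Most mammalian promoters start transcription in both directions, and the RNA made away from the gene is typically short-lived. Nuclear exosome complexes degrade much of it, often after cleavage at an early polyadenylation signal, whereas 5′ splice sites bound by the U1 snRNP protect the coding strand from such early cleavage. The annotated -DT genes are the divergent transcripts that were long or abundant enough in some tissue to be given a gene model, many of them spliced.

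Levels are given as TPM, the share of a library's counts scaled by the length of the transcription unit (TU), which is the exon length for RNA-seq, and for PRO-seq the span without 500 bp at each end. The ratio of RNA-seq TPM to PRO-seq TPM is a relative half-life, given as log2 and set to 0 at the median protein-coding gene (mRNA). Counts on TUs ranged from 5732780 to 9002746 per RNA-seq library and were 6993816 and 7245632 for PRO-seq. RNA-seq replicates 1 and 3 lay closer to each other than to the rest, as did replicates 2 and 4 (chi-square per degree of freedom 1.11 and 1.12, against 1.73 to 2.11 for the other RNA-seq pairs). The labels do not say why. The tests take all 4 as separate libraries, so their p-values may be too small if close libraries are not independent. The -DT genes took between 0.0698% and 0.0724% of the RNA-seq counts of a library and 0.406% or 0.407% of the PRO-seq counts. Without strand, reads on a gene lying inside a coding gene on the other strand would be ambiguous and left uncounted. Of 3436 such genes, 57.7% had PRO-seq counts, so that counting kept the strands apart. Of 139 genes with every exon inside an exon of such a host, 60.4% had RNA-seq counts. Where the host had at least 1000 counts, the median density was 0.750% of the host's in PRO-seq and 0.470% in RNA-seq.

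In the annotation, 500 of the 502 pairs ran in opposite directions, and 433 had start sites within 1000 bp of each other. The -DT gene started upstream of its partner in 454 pairs (within 500 bp in 360) and inside the partner in 48. The median distance was 218.5 bp. A single exon was annotated for 68 members and 2 or more for 445, and the span ran from 1002 to 387530 bp with a median of 9557 bp. Exons of 166 members overlapped an exon of another gene, and 72 members had less than 1000 bp left for PRO-seq.

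The sequences between both start sites are shown for 6 pairs that the results turn on, to show how little DNA separates the divergent units. They are RefSeq start sites on GRCh38.p14, written 5′ to 3′ on the strand of the -DT gene. Capitals at the left are the first 10 transcribed bases of the partner, read on its opposite strand, and capitals at the right are the first 10 of the -DT gene.
RNASEH1-DT, chr2:3558324-3558395 (plus strand): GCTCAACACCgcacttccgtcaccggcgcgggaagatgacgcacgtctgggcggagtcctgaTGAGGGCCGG
MAP4K3-DT, chr2:39437276-39437425 (plus strand): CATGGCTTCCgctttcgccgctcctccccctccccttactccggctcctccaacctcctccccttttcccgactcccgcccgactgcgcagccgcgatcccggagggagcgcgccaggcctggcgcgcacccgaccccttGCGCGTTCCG
RAB30-DT, chr11:83071888-83072075 (plus strand): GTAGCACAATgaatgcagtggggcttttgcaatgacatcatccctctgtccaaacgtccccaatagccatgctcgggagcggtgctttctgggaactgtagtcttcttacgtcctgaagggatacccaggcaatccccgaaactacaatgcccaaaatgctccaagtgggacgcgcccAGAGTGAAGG
HK2-DT, chr2:74833978-74834136 (minus strand): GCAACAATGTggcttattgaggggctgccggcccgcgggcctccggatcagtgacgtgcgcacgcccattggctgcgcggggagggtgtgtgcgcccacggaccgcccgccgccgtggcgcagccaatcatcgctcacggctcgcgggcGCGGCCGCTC
ANKRD42-DT, chr11:83193660-83193721 (minus strand): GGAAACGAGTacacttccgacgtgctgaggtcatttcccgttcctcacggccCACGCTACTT
RPL34-DT, chr4:108620448-108620585 (minus strand): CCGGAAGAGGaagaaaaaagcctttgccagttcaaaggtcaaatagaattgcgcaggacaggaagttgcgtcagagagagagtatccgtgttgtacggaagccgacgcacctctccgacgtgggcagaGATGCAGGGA

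The bases between the start sites numbered 52 for RNASEH1, 130 for MAP4K3, 168 for RAB30, 139 for HK2, 42 for ANKRD42 and 118 for RPL34. Promoter windows of 300 bases (250 before and 50 after the start) were found by symbol for 399 of the -DT genes, among 35116 RefSeq promoters. GGGCGG, the core of the Sp1 box, was present on either strand (both strands were searched for every motif, each on its own, so that matches may share bases) in 73.9% of the -DT windows, 72.6% of 419 partner windows and 45.0% of all windows. CCGGAAG, the core of an ETS site, was present in 18.5% of the -DT windows, 22.7% of the partner windows and 10.3% of all. GCGCATGC, an NRF1 core, was present in 5.76%, 5.49% and 3.05% in the same order. TATAAA was found in 4.51% of the -DT windows, 5.25% of the partner windows and 11.5% of all, and CCAAT in 30.1%, 39.1% and 34.6%. The median GC content was 68.7% in the -DT windows and 58.7% over all. In 228 of 374 pairs with both windows the start sites lay up to 250 bp apart, so that windows of -DT genes and partners share DNA. Their shares are therefore not independent of each other. These matches describe letters in a window and not bound sites.

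Nascent RNA was found for most -DT genes, while their steady-state RNA was scarce. PRO-seq counts were found for 461 of the 513 members (89.9%) and RNA-seq counts for 403 (78.6%), with 86 members seen only in PRO-seq, 28 only in RNA-seq and 24 in neither. The shares were 88.3% and 85.1% for all protein-coding genes. They were 85.1% and 72.8% for other lncRNA genes head to head with a coding gene, and 64.0% and 47.3% for the remaining lncRNA genes. Over all members the median PRO-seq level was 5.49 TPM and the median RNA-seq level 0.377 TPM. The coding partners were at 27.2 and 15.6 TPM. Other lncRNA genes head to head with a coding gene were at 3.29 and 0.233 TPM. Only 25 members exceeded 10 TPM in RNA-seq, against 198 that exceeded 10 TPM in PRO-seq. For the 1123 other head-to-head lncRNA genes the numbers were 42 and 375, and for the 18869 protein-coding genes 7437 and 9136.

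A median log2 relative half-life of -2.24 was measured for the 375 -DT genes with counts in both assays, 4.72-fold below the median mRNA. The 8 combinations of 1 RNA-seq with 1 PRO-seq library gave medians from -2.53 to -2.27, on the fewer genes that each combination detects. The middle 50% of members lay between -3.43 and -1.13, and 335 of 375 (89.3%) lay below 0. The median was -2.48 for 752 other head-to-head lncRNA genes and -1.81 for 3866 other lncRNA genes. The partners were at 0.57 (458 genes). With no test of the difference between classes, these medians are given side by side.

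**Figure D1:**
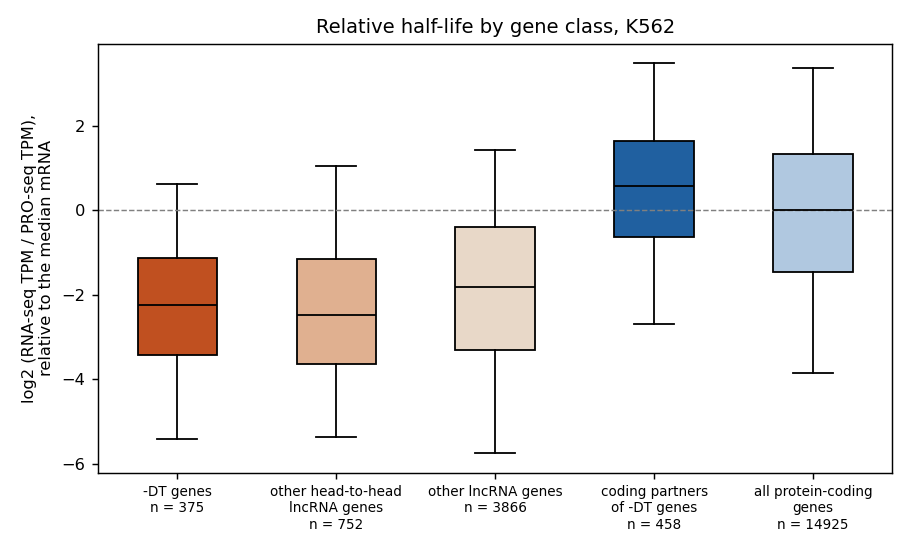
Box plots of log2 RNA-seq TPM over PRO-seq TPM relative to the median mRNA (y axis) for 5 gene classes, with the line at the median, the box over the middle 50% of genes and whiskers from the 5th to the 95th percentile. The -DT genes (median -2.24) and the other head-to-head lncRNA genes (-2.48) lie below 0, and the coding partners (0.57) above it.

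Of the 386 members with at least 10 counts over the 6 libraries, 295 were called below the median mRNA and 15 above it (edgeR quasi-likelihood test, Benjamini-Hochberg adjusted p under 0.05 over 21542 genes), and 76 received no call. Over all genes tested, 43.8% were called below and 33.2% above. Among lncRNA genes alone, 59.9% were called below and 7.94% above, which is the closer background for the 76.4% and 3.89% of -DT genes. The other head-to-head lncRNA genes gave 74.7% and 5.35%. The other 127 members were too low to test, and a member could pass the minimum through PRO-seq counts alone. Among the 192 members with at least 10 counts in each assay, 157 were called below and 12 above in the same fit. By the same minimum, 287 of 353 other head-to-head lncRNA genes were called below and 26 above. For the remaining lncRNA genes it was 724 and 150 of 1066, and for protein-coding genes 3495 and 5986 of 11003.

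In 37 pairs the -DT gene had at least 10 PRO-seq counts and no RNA-seq count in any library. RNPC3-DT had 241 PRO-seq counts (4.30 TPM) and 0 RNA-seq counts. Taking 3 counts over the 4 libraries as the limit that a count of 0 allows, RNPC3-DT lay at or below a log2 relative half-life of -3.81. Likewise ACTN1-DT (53 PRO-seq counts, 0 RNA-seq counts) lay at or below -4.08, and REL-DT (94 and 0) at or below -3.96. These 3 were picked after their values were seen as the lowest limits among 23 members with 0 RNA-seq counts and at least 20 PRO-seq counts. The other limits ran from -3.64 (CEP192-DT) to 1.40 (LRIG3-DT), and USP38-DT, with the most PRO-seq counts (284), was at or below -1.25. Such limits cover counting error only.

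The next comparison sets each -DT gene beside its own partner, in which library size and, to a large part, the promoter are shared. In PRO-seq the -DT gene was at a median of 36.1% of its partner's TPM (log2 -1.47, 432 pairs) and was the higher of the pair in 120. In RNA-seq the median was 4.68% (log2 -4.42, 381 pairs) and the -DT gene was the higher in 31. The library medians were -1.61 and -1.50 in PRO-seq and lay between -4.17 and -3.86 in RNA-seq. In the 350 pairs with counts for both genes in both assays, 35.8% in PRO-seq became 4.21% in RNA-seq.

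**Figure D2:**
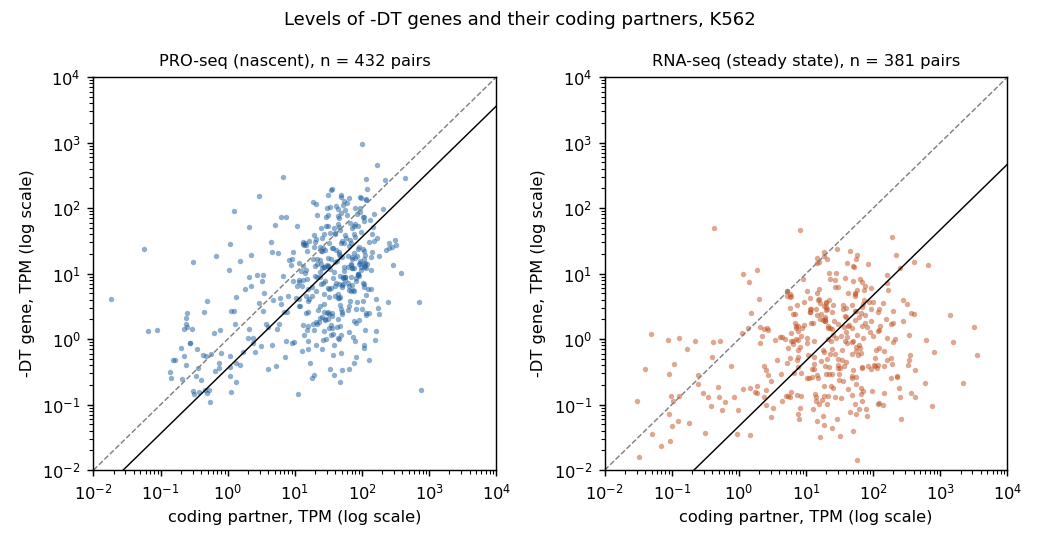
TPM of the -DT gene (y axis, log scale) against TPM of its coding partner (x axis, log scale) in PRO-seq (left, 432 pairs) and RNA-seq (right, 381 pairs), 1 point per pair from counts summed over libraries. The dashed line marks equal levels and the solid line the median ratio, which is 36.1% in PRO-seq and 4.68% in RNA-seq.

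The half-life of the -DT gene minus that of its partner had a median of -3.05 on the log2 scale, an 8.27-fold difference, and was negative in 320 of 350 pairs (91.4%). Library combinations gave -2.89 to -2.54. For 689 other head-to-head pairs the median was -2.68 and 83.0% were negative. A limma test of the pair ratio between assays could be made for 238 -DT pairs, of which 194 were called with the -DT gene below its partner and 6 above (adjusted p under 0.05 over 679 pairs). Over all 679 pairs, which include the -DT pairs, 76.1% were called below and 6.48% above. Of the -DT pairs 81.5% were called below and 2.52% above, and of the 441 other head-to-head pairs 73.2% and 8.62%. These shares lie near each other, and their difference was not tested. In 178 of 208 -DT pairs with counts in every library (85.6%), all 4 RNA-seq ratios lay under both PRO-seq ratios. That held for 79.2% of all such pairs and 75.7% of the 374 other head-to-head pairs.

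Across pairs, the levels of both genes moved together only weakly. Spearman's rho between -DT gene and partner was 0.254 for PRO-seq TPM and 0.140 for RNA-seq TPM (350 pairs), and 0.145 and 0.0750 in the 181 pairs with 10 counts in each assay. For the log2 half-life rho was -0.00404 over the 350 pairs. Nascent and steady-state TPM of the -DT genes themselves had a rho of 0.712, and of 0.496 in the 181 pairs. These describe genes measured in the same libraries, which are not independent replicates.

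The -DT genes with the highest steady-state RNA, among pairs with both genes past the count minimum, were those of RAB30, EMSY, ZMPSTE24, PAXIP1, UBL7 and HK2. RAB30-DT, beside the gene of a Golgi-associated Rab GTPase, had RNA-seq levels of 42.9, 51.3, 54.7 and 53.7 TPM and PRO-seq levels of 93.4 and 89.2 TPM. RAB30 itself was at 0.247 to 0.574 TPM in RNA-seq and at 0.991 and 1.52 TPM in PRO-seq. The -DT gene was the higher of the pair in every library, with log2 ratios to the partner from 6.22 to 7.70 in RNA-seq and of 6.56 and 5.88 in PRO-seq. The ranges overlapped and the pair was not called (difference 0.72 ± 0.40 SE, limma adjusted p = 0.13). Relative to the median mRNA, RAB30-DT was higher by 0.36 ± 0.10 (edgeR adjusted p = 0.00056), although its exons overlap those of another gene.

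EMSY-DT, the divergent transcript of a gene whose protein binds BRCA2, was at 42.9, 49.9, 47.8 and 43.4 TPM in RNA-seq and at 104 TPM in both PRO-seq libraries. Its log2 ratio to EMSY was 2.50, 2.61, 2.78 and 2.15 in RNA-seq and 1.58 and 1.67 in PRO-seq. Every RNA-seq ratio exceeded both PRO-seq ratios, and the pair was called above (0.88 ± 0.19, limma adjusted p = 0.004).

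UBL7-DT, beside a ubiquitin-like protein gene, lay above one reference and below the other, and its exons overlap those of another gene. It was at 19.9, 22.9, 22.1 and 23.8 TPM in RNA-seq and 43.1 and 34.3 TPM in PRO-seq, which placed it above the median mRNA by 0.41 ± 0.12 (edgeR adjusted p = 0.00089). Against UBL7 it was below, with log2 ratios from -1.13 to -0.93 in RNA-seq and 1.14 and 0.87 in PRO-seq (difference -2.04 ± 0.15, limma adjusted p = 1.5e-05). UBL7 itself was called above the median mRNA by 2.47.

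HK2-DT, beside the gene of hexokinase 2, has 1 exon and 333 bp left for PRO-seq. It was at 22.2, 22.3, 17.8 and 22.0 TPM in RNA-seq and at 186 and 194 TPM in PRO-seq. HK2 was at 17.2 to 20.6 TPM and at 36.9 and 32.2 TPM. Steady-state levels of both genes overlapped while every nascent level of the -DT gene was higher, and the pair was called below (-2.25 ± 0.32, limma adjusted p = 0.00039). With a PRO-seq length of the span minus 500 bp in all, the difference was -0.95 (limma adjusted p = 0.0252).

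ZMPSTE24-DT and PAXIP1-DT also have 1 exon. ZMPSTE24-DT, beside the prelamin A protease gene, ranged from 32.9 to 38.6 TPM in RNA-seq and was at 133 and 155 TPM in PRO-seq. PAXIP1-DT, beside a DNA damage response gene, had 210, 230, 139 and 171 RNA-seq counts (23.3 TPM or more in each library) and was at 90.6 and 113 TPM in PRO-seq. Both were called below the median mRNA, by -0.77 ± 0.24 and -0.85 ± 0.21 (edgeR adjusted p = 0.0025 and 9e-05).

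Of the 15 members called above the median mRNA, the 10 with the highest values were examined. RNASEH1-DT, beside the gene of ribonuclease H1, was at 21.2, 18.6, 18.0 and 20.2 TPM in RNA-seq and 10.3 and 8.38 TPM in PRO-seq. The half-life of RNASEH1-DT exceeded that of the median mRNA by 2.28 ± 0.36 (edgeR adjusted p = 7.6e-10). Its nascent level rests on 6 and 5 counts. The log2 ratio to RNASEH1 was -1.39, -1.65, -1.61 and -1.52 in RNA-seq against -3.22 and -3.36 in PRO-seq, and the pair was called above (1.72 ± 0.34, limma adjusted p = 0.0023).

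PCCA-DT, beside the gene of the propionyl-CoA carboxylase alpha subunit, was at 17.8, 15.4, 21.3 and 15.4 TPM in RNA-seq and 15.9 and 17.6 TPM in PRO-seq. It was above the median mRNA by 1.26 ± 0.35 (edgeR adjusted p = 0.00044), with 8 and 9 PRO-seq counts. BOLA3-DT, beside an iron-sulfur cluster assembly gene, ranged from 14.6 to 16.6 TPM in RNA-seq and was at 18.9 and 14.9 TPM in PRO-seq on 5 and 4 counts (1.08 ± 0.45, edgeR adjusted p = 0.024). The nascent levels of these 3 short genes thus rest on few counts, unlike their steady-state levels.

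The next members called above the median mRNA had more nascent counts, and all but TNFRSF10A-DT had long spans. MAP4K3-DT, beside a kinase gene of mTORC1 and JNK signaling, spans 186931 bp and was at 6.54, 10.2, 3.90 and 9.76 TPM in RNA-seq and 7.94 and 8.11 TPM in PRO-seq (1.19 ± 0.20, edgeR adjusted p = 3e-09). UBA6-DT, beside a ubiquitin-activating enzyme gene, spans 379674 bp and ranged from 5.02 to 7.39 TPM against 7.69 and 7.66 TPM (0.98 ± 0.11, edgeR adjusted p = 8.3e-19). TMEM161B-DT ranged from 11.1 to 15.0 TPM against 17.9 and 16.2 TPM, and COPB2-DT, beside a COPI coat gene, from 2.94 to 4.54 TPM against 5.09 and 6.12 TPM. TNFRSF10A-DT, beside a TRAIL receptor gene, spans 5706 bp and ranged from 14.4 to 19.8 TPM against 17.3 and 27.5 TPM. Against its partner, COPB2-DT was called below, as UBL7-DT was (difference -2.40, limma adjusted p = 5.3e-05). The pairs of UBA6-DT, TMEM161B-DT and TNFRSF10A-DT were not called (limma adjusted p = 0.24, 0.246 and 0.0805). Exons of UBA6-DT, TMEM161B-DT, COPB2-DT and TNFRSF10A-DT overlap those of other genes. So do those of 9 of the 15 members called above, and of 140 of the 386 tested.

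The last of the 10 were the lowest in count. MMADHC-DT, beside a cobalamin metabolism gene, had 0, 3, 3 and 2 RNA-seq counts, and TCF12-DT, beside a bHLH transcription factor gene, had 3, 5, 2 and 3 RNA-seq counts and none in PRO-seq, so that its call gives no size. Both overlap exons of other genes. Against its partner, MMADHC-DT was called below (difference -2.49, limma adjusted p = 0.0162), a call lost without precision weights (limma adjusted p = 0.0855).

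**Figure D3:**
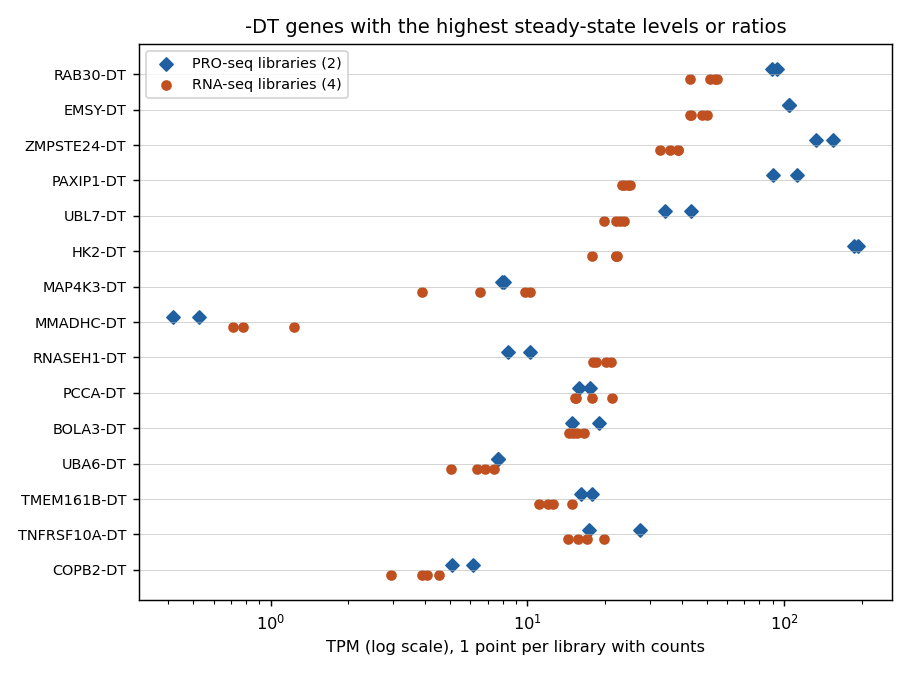
TPM (x axis, log scale) of the 6 -DT genes with the highest RNA-seq level among pairs past the count minimum and of 9 of the 10 examined that were called above the median mRNA, with 1 diamond per PRO-seq library and 1 circle per RNA-seq library that has counts. Every RNA-seq value of RNASEH1-DT (18.0 to 21.2 TPM) lies to the right of both PRO-seq values (8.38 and 10.3 TPM), as do those of MMADHC-DT, which rest on 2 or 3 counts each. TPM of the 2 assays are not on a shared scale, so which lies to the right gives no call.

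The 6 pairs in which the -DT gene was called above its partner were those of SP2, RNASEH1, TMCC1, B3GAT1, MAP4K3 and EMSY. SP2-DT, beside the gene of an Sp family transcription factor, was at 12.8, 8.71, 9.88 and 7.29 TPM in RNA-seq, and SP2 was at 1.70, 0.887, 1.77 and 0.331 TPM on 3 to 20 counts. In PRO-seq the levels of both genes overlapped, with 41.2 and 51.1 TPM for SP2-DT and 45.4 and 48.6 TPM for SP2. The log2 ratio thus went from -0.14 and 0.07 in PRO-seq to between 2.48 and 4.46 in RNA-seq (3.28 ± 0.40, limma adjusted p = 0.00019). SP2-DT itself was below the median mRNA (-1.01 ± 0.27, edgeR adjusted p = 0.00033), and SP2 was further below it (-4.10).

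TMCC1-DT, beside the gene of a membrane protein of the endoplasmic reticulum, had log2 ratios to TMCC1 of 3.08, 2.15, 2.44 and 2.46 in RNA-seq and 1.06 and 0.72 in PRO-seq (1.64 ± 0.28, limma adjusted p = 0.0011). The counted transcripts of this pair start 8275 bp apart. B3GAT1-DT and MAP4K3-DT were called above by 1.05 ± 0.34 and 0.92 ± 0.28 (limma adjusted p = 0.023 and 0.017), and B3GAT1-DT, beside a glucuronyltransferase gene, starts 24493 bp from its partner. Its log2 ratio to B3GAT1 was 0.33, 0.23, -0.51 and 0.99 in RNA-seq and -0.86 and -0.72 in PRO-seq, without overlap. That of MAP4K3-DT was -2.07, -1.29, -2.90 and -1.56 against -2.87 and -2.77, so that RNA-seq replicate 3 lay below both PRO-seq values. The B3GAT1 call was lost without RNA-seq replicate 1, 2 or 4 or PRO-seq replicate 1 (limma adjusted p from 0.0515 to 0.0589). The MAP4K3 call was lost without RNA-seq replicate 2 or 4 or PRO-seq replicate 1 (limma adjusted p from 0.0507 to 0.0805). Both were also lost without precision weights, and the B3GAT1 call with replicate number as a block (limma adjusted p = 0.146). Among called pairs with at least 50 PRO-seq counts for both genes, GATD1-DT had the next highest value and was called below its partner (-0.69 ± 0.23, limma adjusted p = 0.025). Its RNA-seq level was 10.1, 16.0, 18.8 and 14.2 TPM and its PRO-seq level 80.3 and 84.8 TPM, and its call was lost without RNA-seq replicate 1 or 4 or PRO-seq replicate 1 (limma adjusted p from 0.0539 to 0.0922).

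At the other end, the 6 pairs with the lowest differences among those with at least 50 PRO-seq counts for both genes were those of RPL34, SND1, EPCAM, ANKRD42, PSMD14 and TARS1. RPL34-DT, beside a ribosomal protein gene, was at 10.5 and 10.2 TPM in PRO-seq and at 0.276, 0.0654, 0.514 and 0.0896 TPM in RNA-seq, on 4, 1, 5 and 1 counts. RPL34 was at 388 and 384 TPM in PRO-seq and from 2106 to 2200 TPM in RNA-seq. The difference was -7.94 ± 0.42 (limma adjusted p = 2.5e-06), and -7.15 with a prior of 2 counts in place of 0.5. The -DT gene was at -4.32 and its partner at 3.71 relative to the median mRNA in the edgeR fit.

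ANKRD42-DT was the higher of its pair in nascent RNA and the lower in steady-state RNA. It was at 285 and 303 TPM in PRO-seq, with 599 and 650 counts, and at 2.45, 3.65, 2.61 and 2.73 TPM in RNA-seq. ANKRD42, which encodes an ankyrin repeat protein, was at 6.90 and 6.64 TPM in PRO-seq and from 10.6 to 12.1 TPM in RNA-seq. The log2 ratio to the partner was 5.37 and 5.51 in PRO-seq and -2.15 to -1.73 in RNA-seq, a difference of -7.41 ± 0.23 (limma adjusted p = 4.2e-07). Its exons overlap those of another gene, and the part of this overlap in its values was not tested.

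The other 4 had few or no RNA-seq counts, and exons of PSMD14-DT overlap those of another gene. SND1-DT, beside the gene of an RNA-binding nuclease, had 33 and 27 PRO-seq counts and 1 RNA-seq count in all (-7.51 ± 0.39, limma adjusted p = 2.2e-06). EPCAM-DT, beside an epithelial adhesion gene, had 106 and 151 PRO-seq counts and 0 in RNA-seq (adjusted p = 1.6e-06 by limma), so that its fitted difference depends on the prior count. PSMD14-DT, beside a proteasome deubiquitinase gene, had 92 and 82 PRO-seq counts and 3 in RNA-seq (-7.16 ± 0.49, limma adjusted p = 9.1e-06). TARS1-DT, beside the threonyl-tRNA synthetase gene, had 116 and 143 PRO-seq counts and 7 in RNA-seq (-7.07 ± 0.49, limma adjusted p = 1e-05). With a prior of 2 counts in place of 0.5, the differences were -5.75 (SND1-DT), -5.46 (EPCAM-DT), -5.74 (PSMD14-DT) and -5.99 (TARS1-DT). The sizes of all 4 thus depend on the prior count, which the SE does not cover, while all 4 stayed called below. In each the partner's RNA was called above the median mRNA, by 3.24 to 4.59.

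The ratio of nascent levels within a pair varied widely. Besides RAB30-DT and ANKRD42-DT, it was highest for SNX30-DT (log2 3.82 and 3.20 in both PRO-seq libraries), beside a sorting nexin gene, and EFCAB13-DT (3.58 and 3.38). EFCAB13-DT was below its partner in all RNA-seq libraries, with log2 ratios from -1.57 to -0.02 (difference -3.82 ± 0.38, limma adjusted p = 6.2e-05). The lowest nascent ratios were those of MMADHC-DT (0.374% of its partner), HSPA5-DT (0.524%), MAD2L1-DT (0.674%) and PPP1R3B-DT (0.735%), beside genes of cobalamin metabolism, the chaperone BiP, the spindle checkpoint and glycogen metabolism. PPP1R3B-DT starts 98946 bp from its partner. Their RNA-seq counts over the 4 libraries ranged from 1 to 8, and the HSPA5 and MAD2L1 pairs were not called (limma adjusted p = 0.19 and 0.08).

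Apart from ANKRD42-DT, the 6 -DT genes with the highest PRO-seq TPM among pairs with both genes past the count minimum were short (the highest level of any -DT gene was 959 TPM). H2AZ2-DT and H3-3A-DT, beside genes of the histone variants H2A.Z.2 and H3.3, had 153 and 165 bp left for PRO-seq. H2AZ2-DT was at 506 and 397 TPM on 20 and 16 counts and H3-3A-DT at 305 and 230 TPM on 13 and 10 counts. RUSF1-DT had 97 bp left and was at 240 and 313 TPM on 6 and 8 counts, so that these levels rest on little sequence. Exons of H3-3A-DT and RUSF1-DT overlap those of other genes, as do those of EFCAB13-DT. MRPL20-DT, beside a mitochondrial ribosomal protein gene, was at 304 and 276 TPM in PRO-seq on 41 and 38 counts and from 11.2 to 15.6 TPM in RNA-seq. WASL-DT, beside the gene of N-WASP, had 1099 bp left and was at 183 and 214 TPM in PRO-seq and from 12.4 to 15.9 TPM in RNA-seq. All 5 were called below the median mRNA, by -2.54 (WASL-DT) to -6.72 (H2AZ2-DT) in the edgeR fit.

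The relative half-life of the -DT genes also varied with gene structure. The median log2 relative half-life was -3.73 for 58 members of 1 exon, -2.24 for 113 of 2 exons and -1.85 for 204 of 3 or more. No member of 1 exon was called above the median mRNA, and 52 of 56 tested were called below. Of all members tested, 3.89% were called above and 76.4% below. Of the 15 called above, 13 had 3 or more exons, as had 226 of the 386 tested. With members of at least 1000 bp left for PRO-seq alone, the medians were -3.25 (32 genes), -2.03 (93) and -1.85 (202). In the pair comparison the medians were -4.03, -3.29 and -2.63.

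Exon number and span went together. The median half-life was -2.96 for spans under 5000 bp, -2.29 for 5000 to 20000 bp and -1.68 for 20000 bp or more. Within the spans under 5000 bp, the 56 members of 1 exon were at -3.79 and the 72 of 2 or more exons at -2.59. Members of 1 exon also had the highest PRO-seq density, with a median of 74.4 TPM against 12.1 and 6.91 TPM for 2 exons and for 3 or more. They held more RNA as well (2.08, 0.990 and 0.585 TPM). Exon number, span and nascent density therefore cannot be told apart here. Nascent density is also the denominator of the relative half-life, so that its relation to the half-life is partly built in.

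The position of the start site and the overlap with other genes went with smaller differences. Members starting upstream within 500 bp of the partner had a median of -2.27 (272 genes), those farther upstream -1.74 (56) and those inside the partner -2.63 (39). It was -2.11 with exon overlap (135) and -2.32 without (240). In the first 1000 transcribed bases, the polyadenylation hexamer AATAAA came before the 5′ splice site motif GGTAAG, or without it, in 29.0% of -DT genes, in 12.4% of their partners and in 16.5% of all protein-coding genes. It was 21.3% in other head-to-head lncRNA genes and 34.1% in other lncRNA genes. GGTAAG came first in 17.7%, 22.6%, 25.3%, 19.5% and 23.5% in the same order. The median half-life of -DT genes was -2.13 with AATAAA first (108 genes), -1.67 with GGTAAG first (72) and -2.49 with neither (195). These subgroup values are descriptions without a test.

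Genes whose products are known to act on divergent RNA were also examined. Of 35 genes of the exosome, its nuclear adaptors NEXT and PAXT, the cap-binding complex, the U1 snRNP and the cleavage machinery, 34 were tested. In the edgeR fit 27 were called above the median mRNA and 6 below. Of all protein-coding genes tested, 43.6% were called above and 38.3% below (33.2% and 43.8% of all genes). Among 11003 protein-coding genes with at least 10 counts in each assay, 5986 were above and 3495 below. The median RNA-seq level of the list was 94.7 TPM, and the lowest was that of the NEXT subunit gene RBM7 (0.638 TPM), which was too low to test. The 6 called below included ZCCHC8 (-1.51 ± 0.07), the scaffold of NEXT, ZFC3H1 (-1.28 ± 0.06), the scaffold of PAXT, and PCF11 (-0.94 ± 0.05), a cleavage factor. The catalytic exosome subunit DIS3 was at -0.15 ± 0.06, and the helicase MTREX was above at 3.43 ± 0.05. EXOSC3 had no PRO-seq count, so its call gives no size.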

How the data were processed

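Processed values were HTSeq read counts per transcript in each library, not normalised, as deposited by the authors. Their notes name Cutadapt for trimming and HISAT2 with GRCh38 for alignment, with no versions stated. For PRO-seq, 500 bp were taken as removed from each TU end. The descriptions given with the data differ on whether 500 bp were removed in all or at each end. A PRO-seq length of the span minus 500 bp is therefore given as an alternative. Transcripts were joined by identifier to GENCODE release 44 lifted to GRCh37 (37339 of 42371 matched), which gave lengths and classes; lengths may differ slightly from those the authors counted on. Records that name no TU were 66.5% to 68.6% of RNA-seq and 86.5% or 88.6% of PRO-seq and were left out.

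Genes were tested with edgeR 4.0.16 (quasi-likelihood, TMM, length offsets, at least 10 counts over 6 libraries, centred on the median mRNA) and pairs with limma 3.58.1 on log2 TPM ratios with voom weights and a prior of 0.5 counts, in R 4.3.3, with DESeq2 1.42.0 as an alternative. Pairs were tested over all head-to-head lncRNA and coding genes (start sites within 1000 bp) and all -DT pairs. Scripts were tested on simulated data, in which the pair test without a minimum on expected counts made 58 false calls among 1070 pairs. A minimum of 5 expected counts per gene and assay, assuming a shared ratio, was therefore added, with which 2 calls among 665 pairs were false and 76.8% of 112 pairs changed by 2 (log2) were recovered. The edgeR step recovered 59% of 200 genes changed by 2 among 21032, with 5 false calls.

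PRO-seq and RNA-seq libraries share replicate numbers, but same-numbered libraries did not deviate together (r = -0.0648 over 9850 TUs), so no block was used. The genes named were the 6 -DT genes highest in each assay among pairs with both genes past the count minimum, the 6 called pairs at either end of the pair test (50 PRO-seq counts for both genes), the 4 at either end of the nascent ratio (50 PRO-seq counts for the partner and 20 for the -DT gene), the 10 highest called above the median mRNA, and CDKN2A-DT, which spans less than 1000 bp in the annotation and was not analysed here. The members and lists were chosen with earlier results of these data known.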

Additional observations from a re-analysis of the deposited data

Results flagged for a closer look

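Among 64 sets of 4 RNA-seq values examined for the named members, 4 held a library far from the other 3 by Dixon's criterion at 95%, which chance gives in about 1 of 20 sets. HK2-DT was at 17.8 TPM in RNA-seq replicate 3, against a median of 22.1 TPM. TMCC1-DT was at 17.4 TPM in replicate 1, against a median of 9.03 TPM, and without that library its pair difference was 1.43 in place of 1.64 (limma adjusted p = 0.00603). SND1-DT was at 0.675 TPM in replicate 4 and PPP1R3B-DT at 0.237 TPM in replicate 2, each on 1 count with none in the other 3 libraries.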

How the results depend on the processing

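The number of -DT genes called below the median mRNA was 295, 230 with a replicate block, 240 by DESeq2, 169 with at least 10 counts in each assay and 133 with TPM thresholds (over 10 in PRO-seq and over 1 in RNA-seq). Those called above were 15, and 5, 0 and 2 with at least 10 counts in each assay, TPM thresholds and a tested 2-fold difference. The filters on each assay left fewer members to test (192 with at least 10 counts in each assay, against 386), so these counts are not shares. The pair calls were 194 below and 6 above, with 182 and 5 under the replicate block, 110 and 3 with TPM thresholds, 308 and 21 with 1 count over 6 libraries, and 113 below without exon overlap, each on other numbers of pairs. With no minimum on expected counts, as first designed, 288 were below and 10 above; this comparison was added after seeing the data. With the close RNA-seq libraries summed, 292 -DT genes were below and 15 above the median mRNA, and 199 below and 7 above the partner. Leaving out 1 library gave 256 to 286 below and 11 to 14 above the median mRNA, and 139 to 195 below and 4 to 8 above the partner.

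The median half-life of -2.24 became -2.55 with 10 summed counts, -1.35 with a pseudocount of 1 TPM, -2.67 with TPM thresholds, -2.06 with 500 bp removed in all from the PRO-seq span and -2.05 with at least 1000 bp left. In the same order the pair difference of -3.05 became -2.63, -1.27, -2.59, -2.74 and -2.81, and the PRO-seq ratio of -1.47 became -1.71, -1.07, -0.49, -1.69 and -1.84, and -1.35 without exon overlap. The RNA-seq ratio of -4.42 became -3.45, -2.76 and -3.06 with the first 3, and -4.61 both with at least 1000 bp left and without exon overlap. Leaving out 1 library gave -2.32 to -2.18 for the half-life, -3.02 to -2.92 for the pair difference, -1.61 to -1.50 for the PRO-seq ratio, -4.41 to -4.32 for the RNA-seq ratio and 358 to 370 members with counts in both assays. With a PRO-seq length of the span minus 500 bp, the uncalled difference of the PAXIP1-DT pair changed sign (-0.38 to 0.08), that of HK2-DT went from -2.25 to -0.95, the call of WASL-DT was lost (-0.76 to -0.23) and that of TNFRSF10A-DT gained (0.52 to 0.64). The causes were not tested. Of 27 named pairs tested, 19 were called, and 5 of them lost their call in some alternative. With the replicate block the calls of B3GAT1-DT (1.05) and GATD1-DT (-0.78) were lost and that of MAD2L1-DT (-2.47) was gained. Depth limits the members with few RNA-seq counts, and p-values do not cover other cultures.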
